A study of Homo sapiens with 52 samples.

Results

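The 8 genes used as markers of breast cancer stem cells (CD44, CD24, ALDH1A1, ALDH1A3, PROM1, SOX4, SOX9 and KLF4) were followed by their gene names through all 18 groups of an mRNA sequencing experiment. They are 8 of the 78894 genes quantified, and the 38 transcripts of CD44, out of 387954, were followed as well. They were selected by name alone, with earlier results of these data known.

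The libraries came from 3 established breast cancer cell lines that are classed as claudin-low, SUM159PT, MDA-MB-231 and HS578T, in which NRP1 (neuropilin-1, a co-receptor for semaphorins and VEGF) was knocked down. In the siRNA arm, cells received 20 nM of the non-targeting siNT, of siNRP1#3 or of siNRP1#5 by lipid reagent, and RNA was taken at 72 hrs. In the shRNA arm, cells carried shNT, shNRP1#3 or shNRP1#5 in the lentiviral vector pLKO.1, were selected with 1 µg/mL puromycin for 3 days, and gave RNA 48 hrs after seeding. Both #3 reagents were designed against transmembrane NRP1 alone and both #5 reagents, which share a target site, against transmembrane and soluble NRP1. Groups had 3 libraries, except that replicates 2 and 3 stand for SUM159PT siNRP1#5 and replicates 1 and 2 for HS578T shNRP1#3, so that 52 libraries entered (17, 18 and 17 by line in the order above). The study calls the replicates of both arms biological, and those of the shRNA arm were successive passages of transduced cells. The p-values measure the spread between these libraries.

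Cancer stem cells are tumour cells that can self-renew and seed a tumour. In the breast they are commonly sorted by 2 readouts, a CD44-high and CD24-low surface and a high aldehyde dehydrogenase activity. CD44 is the receptor for hyaluronan and is spliced into a standard form and into variant forms that hold extra exons, CD24 is a small glycosylated surface protein of luminal epithelial cells, and PROM1 (CD133) is a pentaspan protein of membrane protrusions. ALDH1A1 and ALDH1A3 oxidise retinaldehyde to retinoic acid. SOX4, SOX9 and KLF4 are transcription factors, where SOX9 with its partners serves mammary stem and luminal progenitor cells and KLF4 is a reprogramming factor.

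Depth and the labels were checked first. Libraries held 25310443 to 72003442 expected counts, which were scaled with TMM factors to CPM, counts relative to a fixed library total. In CPM, NRP1 was lower in every knockdown library than in every matching NT library in all 12 knockdown comparisons. Its log2 fold changes lay between -0.70 and -4.88, and 11 of the 12 passed the test. HS578T shNRP1#3 was the exception, at -1.59 (adjusted p = 0.069 in edgeR). In deposited TPM, which also scale by transcript length, MDA-MB-231 siNRP1#3 (24.78 to 31.28) overlapped siNT (25.61 to 31.61). No other knockdown group overlapped its control in TPM. By RT-qPCR, the paper reports a significant fall of this gene in most cases. Of the markers that claudin-low cells lack, CLDN3, CLDN7 and EPCAM were at or below 1.04 CPM in the NT libraries of SUM159PT and HS578T, CDH1 (E-cadherin) was at or below 1.05 CPM and CLDN4 reached 0.860 to 6.05 CPM. In MDA-MB-231, CDH1 was also low (0.425 to 1.55 CPM), while CLDN3 (4.86 to 9.36 CPM), CLDN7 (14.3 to 39.5), EPCAM (11.8 to 24.2) and CLDN4 (129 to 182) were higher. No line outside the claudin-low class was sequenced, so whether these levels go against the label was not tested. Vimentin stood between 2383 and 10790 CPM in every NT library. Of the other markers that claudin-low cells express, mean ZEB1 was 32.4 CPM in MDA-MB-231, 29.8 in HS578T and 15.9 in SUM159PT. FN1 and SNAI2 were lowest in MDA-MB-231, at 362 and 10.4 CPM. They averaged 9124 and 113 CPM in HS578T and 2886 and 10.9 CPM in SUM159PT.

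The HS578T siNRP1#5 libraries stood apart. Genes nearly silent in HS578T but abundant in MDA-MB-231 (59 genes) were found there at 13.3 to 24.8% of their MDA-MB-231 level, against 0.691 to 2.19% in HS578T siNT and 2.57 to 7.42% in siNRP1#3. The same measure for SUM159PT genes (70 genes) gave 1.65 to 8.72% in siNRP1#5. The summed level of the 5 claudin-low-lacking markers was 24.6 to 70.0 CPM in HS578T siNRP1#5 and 3.78 to 7.69 CPM in siNT. In SUM159PT the same sum was also higher with both #5 reagents, at 9.11 to 20.9 CPM with siNRP1#5 (2.98 to 3.94 in siNT) and 17.7 to 35.1 CPM with shNRP1#5 (1.68 to 2.52 in shNT), where genes of MDA-MB-231 stood at 0.137 to 1.06% and genes of HS578T at 0.0958 to 0.228% of their level. The part of these markers in the member results was not tested. Since all 3 HS578T siNRP1#5 libraries were affected, results called for single genes in them are also given after subtraction of the estimated share of the other lines. Genes that then failed the filter on low counts are the exception. Subtraction also took the other lines' reads out of the library total, by which every gene is scaled. CD44 transcript shares were not recomputed. The share is a median over genes and exceeded the measured level for some. In siNRP1#5 replicate 1 it would bring 4.60 CPM of ALDH1A3 from MDA-MB-231, where 3.53 CPM was measured. The log2 fold change of TGM2 with siNRP1#5 in HS578T went from 1.42 to -2.81 after subtraction.

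CD44 lies on chromosome 11 (GRCh38, chr11:35138882-35232402, plus strand), and 28 of its 38 transcripts hold at least 1 exon that touches the variable region (chr11:35190066-35214851). Of these, 22 hold a whole exon v2 to v10, and 6 hold only other pieces of the region, such as retained introns. Only 7 transcripts hold both constitutive exons that flank this region, 4 of them with variable exons and 3 without. The junctions below, 15 bases of the last constitutive exon before the region followed by 15 bases of the next exon, are what tells the standard form from the variants, and capitals mark variable-exon bases (reference sequence, 5′ to 3′).
CD44 constitutive junction (CD44-201): gaatccctgctaccagagaccaagacacat
CD44 v10 junction (CD44-210): gaatccctgctaccaATAGGAATGATGTCA
CD44 v8 junction (CD44-209): gaatccctgctaccaATATGGACTCCAGTC
The exons that these variants add are v8 (102 bases, chr11:35208105-35208206), v9 (90 bases, chr11:35209965-35210054) and v10 (204 bases, chr11:35211246-35211449), all in the coding part of the gene. Exon v8 is shown as an example. The quantification also apportions reads of shared exons among transcripts, so a read need not carry v8 to count for the v8 forms.
CD44 exon v8: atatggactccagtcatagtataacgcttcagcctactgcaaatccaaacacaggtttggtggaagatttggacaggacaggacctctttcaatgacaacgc

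The members differed widely in level. Per transcript length (TPM, as deposited), CD44 led with a median of 784 over all libraries and a range of 243 to 2578. KLF4 followed with a median of 10.5 TPM, CD24 with 6.84, SOX9 with 4.70, ALDH1A3 with 2.27 and SOX4 with 1.56 TPM. CD24 spanned the widest range of these, from 0.64 to 263 TPM. ALDH1A1, with at most 17 counts in a library, never passed 0.361 CPM, and PROM1, with at most 3 counts, never passed 0.0774 CPM. A count of 3 equals 0.0370 to 0.142 CPM at these depths, so PROM1 was not above the limit of detection in any library and was not tested, and ALDH1A1 passed the filter on low counts only in SUM159PT and in the fit over all lines. These limits cover counting error only.

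Each line had its own marker profile in the NT controls (siNT and shNT, 6 libraries a line). CD44 averaged 1832 ± 632 TPM in HS578T, 747 ± 99.4 in SUM159PT and 689 ± 93.9 in MDA-MB-231 (SD, n = 6). CD24 was 82.4 ± 44.4 TPM in SUM159PT, 6.33 ± 4.25 in HS578T and 3.18 ± 1.61 in MDA-MB-231. SUM159PT was thus the line with the most CD24, with no overlap with the other lines. SOX4 had the same order, at 5.25 ± 1.46, 1.44 ± 0.441 and 0.247 ± 0.149 TPM. MDA-MB-231 instead held the most ALDH1A3 (9.23 ± 2.12 TPM, against 3.32 ± 2.72 in SUM159PT and 0.818 ± 0.485 in HS578T), SOX9 (35.4 ± 12.4, against 2.21 ± 1.33 and 3.40 ± 1.15) and KLF4 (21.5 ± 6.19, against 9.09 ± 2.63 and 8.16 ± 1.91).

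In the edgeR fit over all 52 libraries, 6 of 7 tested members differed in each pair of lines at an adjusted p under 0.05, where 59.4% (SUM159PT against MDA-MB-231), 70.2% (HS578T against MDA-MB-231) and 63.5% (HS578T against SUM159PT) of all genes did. The largest difference was CD24 in SUM159PT over MDA-MB-231 (log2 fold change of CPM 5.34), followed by SOX4 in the same pair (4.84) and SOX9, which was lower there (-3.82). CD44 was higher in SUM159PT than in MDA-MB-231 by 0.48, a call that was lost without replicate 2 of each group (adjusted p = 0.092). HS578T exceeded MDA-MB-231 in CD44 (1.60), CD24 (2.02) and SOX4 (3.39) and had less ALDH1A3 (-3.09), SOX9 (-2.56) and KLF4 (-0.57). Against SUM159PT, HS578T had more CD44 (1.12) and SOX9 (1.25) and less CD24 (-3.32), ALDH1A3 (-1.58) and SOX4 (-1.45). KLF4 did not pass between HS578T and SUM159PT (0.27, adjusted p = 0.0749 in edgeR), though it did with DESeq2 (adjusted p = 0.0137). ALDH1A1 passed only there (-2.04, adjusted p = 0.0402 in edgeR), at the limit of detection, and neither with DESeq2 (adjusted p = 0.0748) nor without replicate 2 or 3 (adjusted p up to 0.216).

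**Figure D1:**
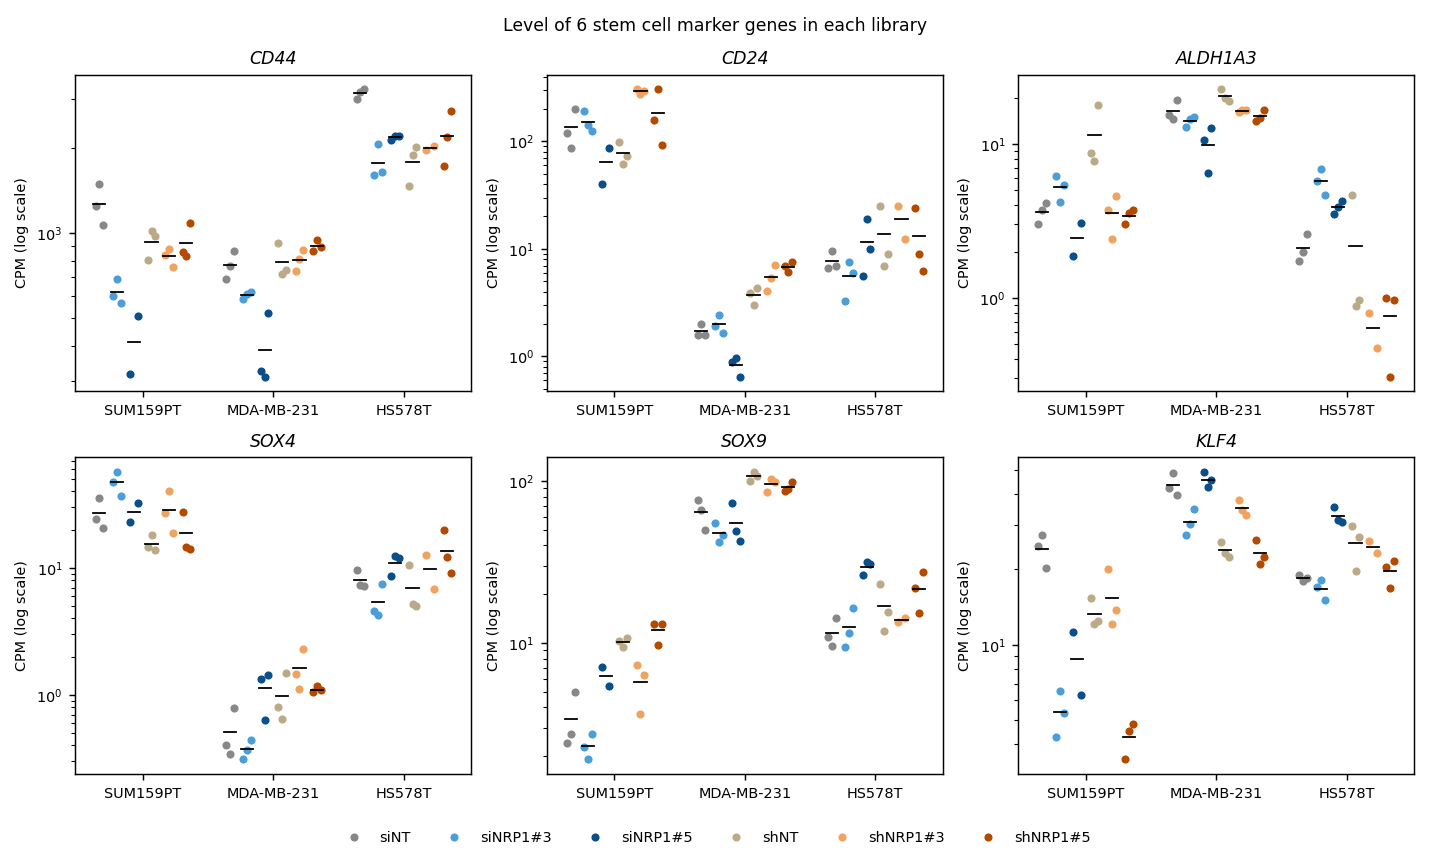
Level of 6 markers in each library (CPM on a log axis), grouped by cell line and treatment, with each point 1 library and each bar the group mean. SUM159PT carries the most CD24 and SOX4, MDA-MB-231 the most SOX9 and HS578T the most CD44.

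NRP1 knockdown called 18 of 76 member tests, 6 higher and 12 lower than the matching NT control. In the siRNA arm 12 of 38 were called, where each comparison called 4.65 to 29.4% of all genes. In the shRNA arm 6 of 38 were called, where each comparison called 0.0356 to 20.7% of all genes. By line, 8 of 28 tests (28.6%) were called in SUM159PT, where 8.47% of all tests over genes were, 7 of 24 (29.2%) in MDA-MB-231 against 19.8%, and 3 of 24 (12.5%) in HS578T against 6.07%. For siNRP1#3, 2 of 7 members were called in SUM159PT (8.66% of all genes), 1 of 6 in MDA-MB-231 (25.7%) and 1 of 6 in HS578T (4.65%). For siNRP1#5 these were 2 of 7 (17.9%), 4 of 6 (29.4%) and 2 of 6 (18.7%). For shNRP1#3 they were 2 of 7 (1.4%), 1 of 6 (3.65%) and 0 of 6 (0.0356%), and for shNRP1#5 they were 2 of 7 (5.94%), 1 of 6 (20.7%) and 0 of 6 (0.946%). These fits held no term for the replicate number. With such a term more members were called in MDA-MB-231 and HS578T. Among them was SOX4 in HS578T shNRP1#5 (0.98, adjusted p = 0.0264 in edgeR). The median log2 fold change of the tested members lay furthest from 0 for siNRP1#5, at -1.08 (SUM159PT), -0.46 (MDA-MB-231) and 0.70 (HS578T), where the medians over all genes were 0.01, 0.01 and 0.03. In bulk RNA, fewer cells that express a marker and less of its RNA per cell cannot be told apart.

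**Figure D2:**
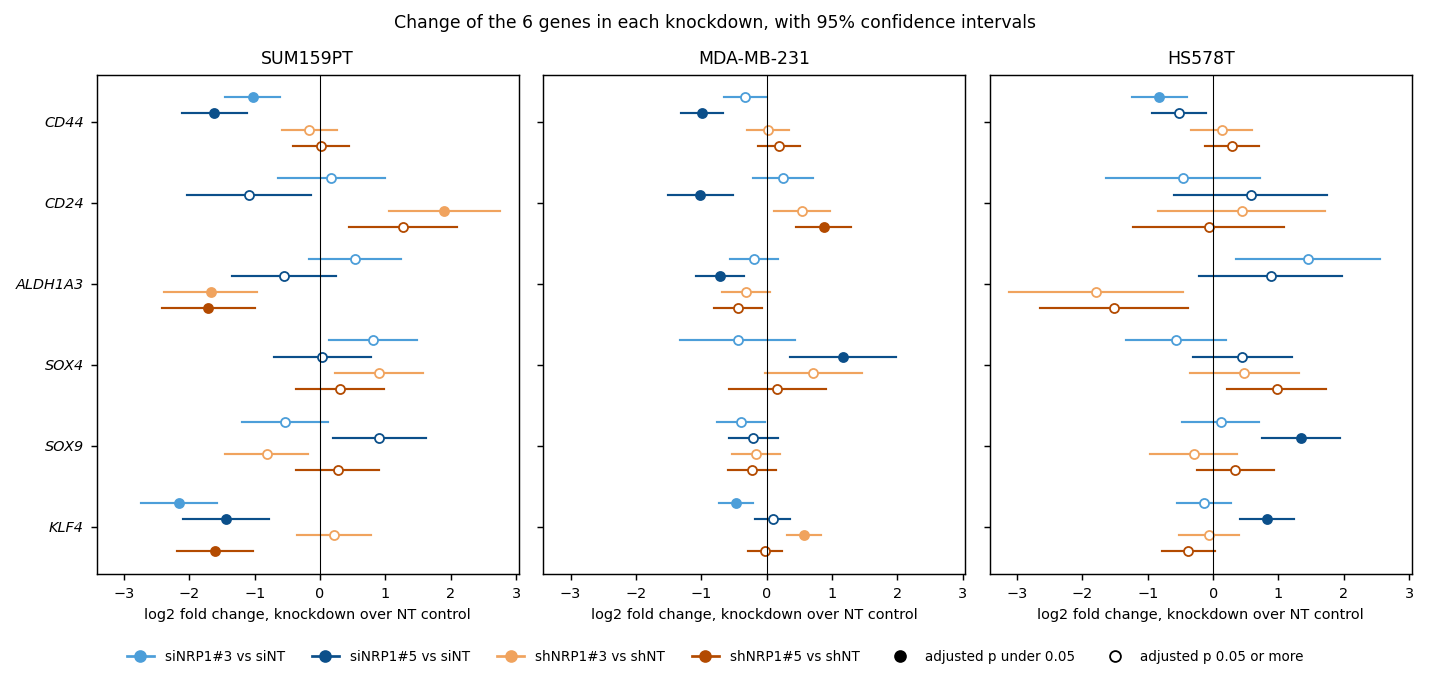
Log2 fold change of each tested member in the 12 knockdown comparisons, with 95% confidence intervals and filled points where the adjusted p was under 0.05. CD44 is called in siRNA comparisons alone, always lower, while KLF4 is called 6 times, 4 of them lower.

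CD44 was called lower in 4 of 6 siRNA comparisons and was called in none of the 6 shRNA comparisons. In SUM159PT it stood at 1252, 1490 and 1070 CPM with siNT, at 600, 691 and 566 CPM with siNRP1#3 and at 317 and 509 CPM with siNRP1#5. Both knockdowns lay below every control. CD44 fell by 1.03 on the log2 scale with siNRP1#3 (SE 0.20, adjusted p = 0.0049 in edgeR) and by 1.62 with siNRP1#5 (SE 0.24, adjusted p = 0.000722). The second call was lost when the fit held only these groups (adjusted p = 0.0746). In MDA-MB-231 the levels were 689, 765 and 864 CPM with siNT, 584, 611 and 618 CPM with siNRP1#3 and 325, 311 and 522 CPM with siNRP1#5. The 3 groups did not overlap. CD44 fell by 0.98 with siNRP1#5 (SE 0.15, adjusted p = 8.79e-05), while its difference of -0.33 with siNRP1#3 did not pass (adjusted p = 0.123). The latter did pass in a fit of siNRP1#3 and siNT alone (adjusted p = 0.0344 in edgeR).

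In HS578T, CD44 stood at 2979, 3176 and 3245 CPM with siNT, at 1603, 2072 and 1650 CPM with siNRP1#3 and at 2143, 2212 and 2211 CPM with siNRP1#5. All 6 knockdown libraries lay below the controls. Only siNRP1#3 passed (-0.82, SE 0.20, adjusted p = 0.0253 in edgeR), and that call was lost without any of 5 of its 6 libraries, siNRP1#3 replicate 2 being the exception, with log2 fold changes from -0.86 to -0.76 and adjusted p up to 0.116. For siNRP1#5 the difference was -0.52 (adjusted p = 0.074 in edgeR and 0.0337 in DESeq2). At the estimated share, 104 to 194 CPM of the CD44 in these libraries would come from MDA-MB-231. That line held less CD44, on average 783 CPM in its NT controls against 3133 CPM in HS578T siNT. With the other lines' reads subtracted, the siNRP1#5 difference was -0.22 (adjusted p = 0.474) and siNRP1#3 still passed (-0.77, adjusted p = 0.0392). In the shRNA arm, the 6 differences lay between -0.16 and 0.28 and none passed. For example, SUM159PT had 804, 1019 and 981 CPM with shNT and 859, 831 and 1083 CPM with shNRP1#5.

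The deposited TPM, which divide by the length of the transcripts used, gave smaller CD44 differences. Their log2 ratio was -0.77 and -1.12 in SUM159PT with siNRP1#3 and siNRP1#5, -0.57 in MDA-MB-231 with siNRP1#5 and -0.58 in HS578T with siNRP1#3. The directions were those of the counts.

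The transcripts of CD44 were apportioned by RSEM, whose isoform percent gives each transcript's part of the gene's TPM. Over all libraries, the transcript CD44-207, marked for nonsense-mediated decay, averaged 25.4%, the truncated CD44-227, whose coding sequence is not defined, 18.2%, and the standard form CD44-201 only 15.9%. Of variants, CD44-226 with exon v8 averaged 5.72%, CD44-210 with v10 4.62% and CD44-209 with v8 to v10 1.70%. Most of the estimated CD44 RNA was thus placed on transcripts that do not span the variable region or do not encode the full protein.

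CD44-201 took a smaller part in siNRP1#5 libraries. In SUM159PT it was 24.3 to 26.3% with siNT and 3.65 to 4.83% with siNRP1#5. In MDA-MB-231 these ranges were 23.0 to 23.6% and 4.27 to 5.82%, and in HS578T 6.01 to 7.53% and 1.19 to 3.05%. The groups did not overlap in any line. With siNRP1#3, the values were 17.99 to 24.8% in SUM159PT, 12.6 to 20.1% in MDA-MB-231 and 1.96 to 3.64% in HS578T, apart from siNT in the latter pair of lines. Under shRNA, CD44-201 ranged from 13.2 to 18.5% in SUM159PT shNRP1#5 and from 18.3 to 29.5% in shNT. In MDA-MB-231 these ranges were 19.2 to 21.99% and 22.1 to 26.7%, and in HS578T, where shNRP1#5 lay higher, 13.8 to 14.6% and 10.2 to 13.4%. These percents were chosen after their values were seen and were not tested.

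The share of CD44 in the 28 transcripts with an exon in the variable region was 25.0 to 52.3% in SUM159PT, 39.5 to 53.6% in MDA-MB-231 and 28.5 to 55.7% in HS578T. On average over libraries, 30.2 points of this share lay in the 6 transcripts with no whole exon v2 to v10, CD44-227 among them, and 15.7 points in the 22 with such an exon. In an exact two-sided permutation test within lines, the share was higher with siNRP1#5 than with siNT by 7.52 percentage points on average (p = 0.003, 0.012 adjusted over 4 knockdowns), with the largest difference in SUM159PT (10.9 points), followed by MDA-MB-231 (6.83) and HS578T (4.82). With shNRP1#3 the share fell by 4.91 points below shNT (exact permutation p = 0.00825, adjusted 0.0165), with -5.71, -2.86 and -6.15 points by line. The differences of 3.80 points for siNRP1#3 and -2.40 for shNRP1#5 did not pass (adjusted exact permutation p of 0.333 and 0.441). The siNRP1#5 call was lost without replicate 3 (6.62 points, adjusted exact permutation p = 0.167), and that of shNRP1#3 without replicate 1 (-4.62 points, adjusted p = 0.13 in the exact test) or replicate 2 (-3.53 points, adjusted p = 0.333 in the exact test). The shNRP1#3 call was also lost with the replicate block (-4.85 points, adjusted p = 0.0625 in the exact test) and by expected counts (-2.03 points, adjusted p = 0.132 in the exact test).

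These shares depended on which transcripts were counted. With only the 22 transcripts that hold a whole exon v2 to v10, a choice made after the data were seen, the differences were 2.64 points for siNRP1#5 and -2.76 for shNRP1#3, each at an adjusted exact permutation p of 0.162, and neither siNRP1#3 (0.280 points) nor shNRP1#5 (1.26 points) passed. Among the 7 transcripts that span the whole region, also chosen after the data were seen, the share with variable exons was 7.95 to 16.5% in SUM159PT, 12.7 to 23.3% in MDA-MB-231 and 2.38 to 14.3% in HS578T. The siNRP1#5 difference was then -0.07 points (exact permutation, adjusted p = 0.935) and that of shNRP1#3 0.540 points (adjusted p = 0.726), both of the opposite sign. On this measure siNRP1#3 (1.65 points) and shNRP1#5 (2.31 points) passed instead, each at an adjusted exact permutation p of 0.043. Within siNRP1#5, MDA-MB-231 was lower (14.0 ± 1.3% against 17.1 ± 0.36% in siNT, SD, n = 3) and HS578T higher (4.11 ± 0.42% against 2.72 ± 0.58%). In HS578T the controls themselves differed, with 9.65 ± 1.65% in shNT.

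**Figure D3:**
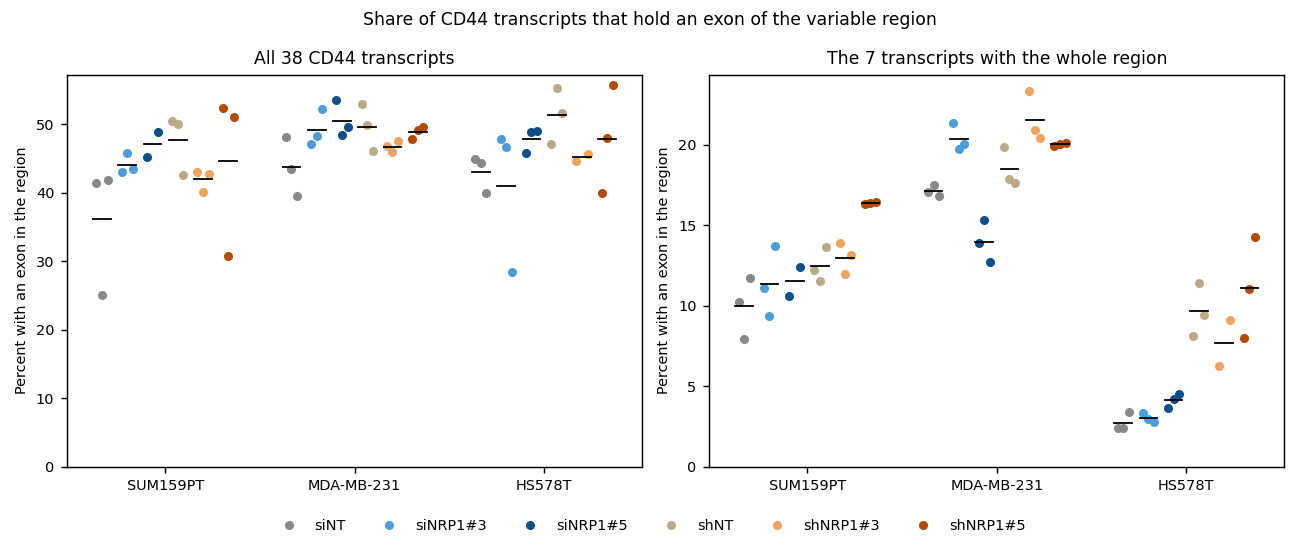
Percent of CD44 in transcripts with an exon in the variable region, over all 38 transcripts and over the 7 that span the whole region, with each point 1 library and each bar the group mean. The siNRP1#5 groups lie above siNT in the first panel in each line, while in the second MDA-MB-231 siNRP1#5 lies below siNT.

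CD24, whose low level defines the stem-like surface, moved in opposite directions between reagents. In SUM159PT it stood at 99.1, 62.2 and 73.5 CPM with shNT and at 307, 276 and 291 CPM with shNRP1#3. All shNRP1#3 libraries lay above the controls. It rose by 1.90 on the log2 scale (SE 0.40, adjusted p = 0.0228 in edgeR), but the call was lost without any single library of the 6, with log2 fold changes of 1.76 to 2.12 and adjusted p up to 0.125. With shNRP1#5 the levels of 157, 306 and 92.8 CPM also exceeded most controls without passing (1.27, adjusted p = 0.0694 in edgeR and 0.0212 in DESeq2). In the siRNA arm of SUM159PT, CD24 had 118, 86.8 and 202 CPM with siNT, 190.5, 143 and 124 CPM with siNRP1#3 and 40.1 and 87.3 CPM with siNRP1#5, and neither difference passed (0.17 and -1.08).

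In MDA-MB-231, CD24 was low throughout, at 1.59, 1.98 and 1.57 CPM with siNT and 0.893, 0.965 and 0.649 CPM with siNRP1#5. The groups did not overlap and it fell by 1.01 (SE 0.24, adjusted p = 0.00315 in edgeR). With shRNA it went the other way, from 3.88, 3.03 and 4.34 CPM in shNT to 6.89, 6.13 and 7.48 CPM in shNRP1#5, a rise of 0.87 (SE 0.20, adjusted p = 0.00551). In HS578T no CD24 difference passed. Replicate 1 of each HS578T shRNA group stood at 24.0 to 25.3 CPM and the other libraries of these groups at 6.27 to 12.3 CPM. CD24 has processed copies elsewhere in the genome, and its fractional counts show that some reads were shared among loci.

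ALDH1A3, which unlike ALDH1A1 had more than 3 counts in all 52 libraries, was called lower in 3 comparisons. In SUM159PT it stood at 8.72, 7.77 and 17.998 CPM with shNT, at 3.75, 2.41 and 4.58 CPM with shNRP1#3 and at 3.02, 3.56 and 3.71 CPM with shNRP1#5. Every knockdown library lay below every control, and shNT replicate 3 was the highest of all. The falls were 1.67 (SE 0.34, adjusted p = 0.017 in edgeR) and 1.71 (SE 0.34, adjusted p = 0.00585). The first was lost without shNRP1#3 replicate 1 (-1.71), without its replicate 2 (-1.46) or without shNT replicate 3 (-1.20), with adjusted p up to 0.0896. In the siRNA arm of SUM159PT, ALDH1A3 had 3.01 to 4.15 CPM with siNT, and the differences of 0.54 and -0.55 did not pass.

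In MDA-MB-231, ALDH1A3 stood at 15.4, 14.5 and 19.3 CPM with siNT and 10.6, 6.50 and 12.7 CPM with siNRP1#5, without overlap. It fell by 0.71 (SE 0.18, adjusted p = 0.00525 in edgeR), a call that was lost in a fit of these groups alone (adjusted p = 0.111). The other MDA-MB-231 differences were -0.19, -0.32 and -0.44, and none passed. The last, for shNRP1#5, did pass in a fit of shNRP1#5 and shNT alone (adjusted p = 0.00554 in edgeR) and with the replicate block (adjusted p = 0.0345). In HS578T the level of ALDH1A3 was 1.74, 1.98 and 2.59 CPM with siNT and 5.73, 6.92 and 4.66 CPM with siNRP1#3. All of the latter lay higher, yet the difference of 1.45 did not pass (adjusted p = 0.128), though it did when every gene was kept whatever its counts (adjusted p = 0.024) and in a fit of these groups alone (adjusted p = 0.0272). With the other lines' reads subtracted it was 1.48 (adjusted p = 0.494). In the shRNA arm of HS578T the levels were 4.66, 0.880 and 0.972 CPM with shNT, 0.791 and 0.474 CPM with shNRP1#3 and 0.995, 0.307 and 0.965 CPM with shNRP1#5. Neither difference passed (-1.79, adjusted p = 0.497, and -1.52, adjusted p = 0.166), and the latter did without the filter (adjusted p = 0.0258). ALDH1A3 overlaps an antisense gene, and the library kit kept strand.

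ALDH1A1 differences could not be resolved at this depth. Its 4 tests in SUM159PT gave 0 calls at an adjusted p under 0.05 in edgeR, and group means there ran from 0.0151 to 0.219 CPM.

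KLF4 was the member most often called. In SUM159PT it stood at 24.7, 27.5 and 20.2 CPM with siNT, at 4.28, 6.53 and 5.35 CPM with siNRP1#3 and at 11.3 and 6.32 CPM with siNRP1#5. No knockdown library reached a control. KLF4 fell by 2.16 on the log2 scale with siNRP1#3 (SE 0.28, adjusted p = 0.000261 in edgeR) and by 1.44 with siNRP1#5 (SE 0.31, adjusted p = 0.00603). The latter was lost without siNRP1#5 replicate 3 (-1.07, adjusted p = 0.0543) and in a fit of these groups alone (adjusted p = 0.119). With shRNA, KLF4 went from 15.4, 12.1 and 12.5 CPM in shNT to 3.48, 4.52 and 4.82 CPM in shNRP1#5, a fall of 1.61 (SE 0.27, adjusted p = 0.00228). The shNRP1#3 libraries, at 20.1, 12.2 and 13.8 CPM, overlapped the controls (0.21).

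In MDA-MB-231 the KLF4 changes were smaller. It stood at 42.3, 48.4 and 39.7 CPM with siNT and 27.5, 30.2 and 34.7 CPM with siNRP1#3, and fell by 0.47 (SE 0.13, adjusted p = 0.00947 in edgeR). With shRNA it rose, from 25.8, 23.2 and 22.4 CPM in shNT to 37.9, 34.5 and 33.1 CPM in shNRP1#3 (0.57, SE 0.13, adjusted p = 0.014). Neither pair of groups overlapped, but the fall was lost without siNRP1#3 replicate 1 (-0.41, adjusted p = 0.0553) and the rise without shNRP1#3 replicate 1, shNT replicate 2 or shNT replicate 3 (0.48 to 0.55, adjusted p up to 0.0826). The #5 reagents left differences of 0.09 and -0.03.

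In HS578T, KLF4 rose with siNRP1#5. Its libraries had 35.6, 31.4 and 31.0 CPM, all above the 18.9, 17.9 and 18.5 CPM of siNT (0.82, SE 0.19, adjusted p = 0.00846 in edgeR). Since MDA-MB-231 expresses more KLF4, its RNA at the estimated share would bring 8.34, 6.09 and 4.46 CPM to these libraries. After subtraction of the other lines' reads, the difference was 0.94 and was still called (adjusted p = 0.00828). The other HS578T differences of KLF4 lay between -0.38 and -0.07 and did not pass.

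SOX9 was called in a single knockdown comparison, and that in the same libraries. In HS578T it stood at 10.8, 9.57 and 14.3 CPM with siNT and 26.2, 31.5 and 30.8 CPM with siNRP1#5, without overlap (1.35, SE 0.28, adjusted p = 0.0042 in edgeR). MDA-MB-231 has far more SOX9, and its RNA at the estimated share would bring 21.1, 15.5 and 11.3 CPM. With the other lines' reads subtracted, the difference was 0.75 and was no longer called (adjusted p = 0.204). In SUM159PT, SOX9 had 2.40, 2.73 and 4.98 CPM with siNT and 7.12 and 5.42 CPM with siNRP1#5, which did not pass in edgeR (0.91, adjusted p = 0.0714) but did in DESeq2 (adjusted p = 0.0344). In MDA-MB-231 all its libraries lay between 42.2 and 113.7 CPM and no knockdown difference passed. With the replicate block the siNRP1#3 difference did (-0.38, adjusted p = 0.0196 in edgeR). So did that of shNRP1#5 in a fit of shNRP1#5 and shNT alone (-0.24, adjusted p = 0.0434 in edgeR).

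**Figure D4:**
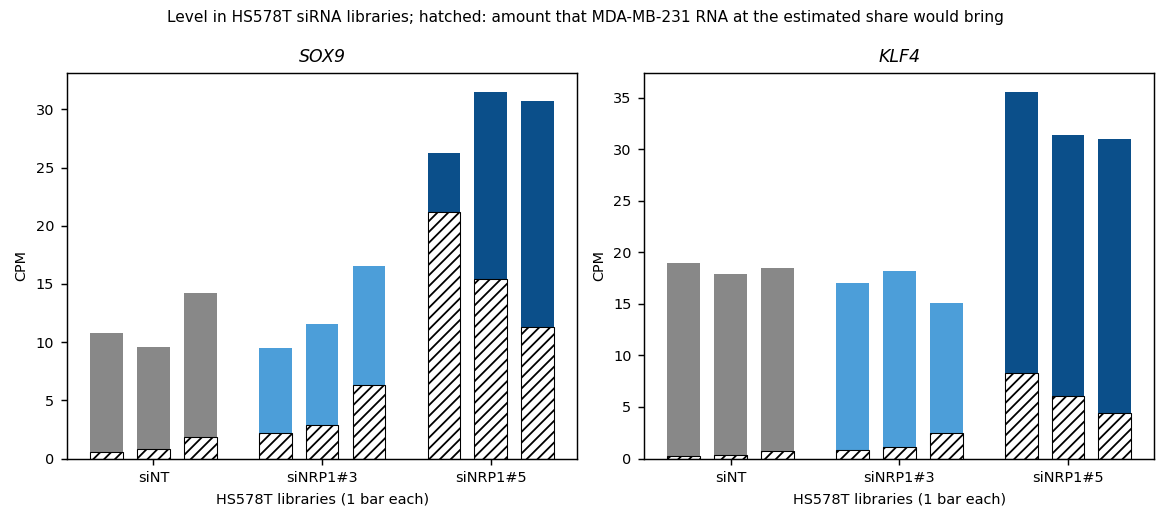
SOX9 and KLF4 in each HS578T siRNA library (CPM, bars from 0), where the hatched part is the amount that MDA-MB-231 RNA at the estimated share would bring. The hatched part is 11.3 to 21.1 CPM of SOX9 and 4.46 to 8.34 CPM of KLF4 in the siNRP1#5 libraries.

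SOX4 was called once, where it is scarcest. In MDA-MB-231 it stood at 0.403, 0.340 and 0.785 CPM with siNT and 1.34, 0.635 and 1.44 CPM with siNRP1#5, with overlap (1.17, SE 0.39, adjusted p = 0.0276 in edgeR). The call was lost without siNRP1#5 replicate 1 or 3 or siNT replicate 1 or 2 (0.93 to 1.06, adjusted p up to 0.122) and in a fit of these groups alone (adjusted p = 0.107). In SUM159PT its level was 24.4, 35.7 and 20.7 CPM with siNT and 47.3, 57.2 and 36.9 CPM with siNRP1#3. All of the latter were higher, but the difference of 0.81 did not pass (adjusted p = 0.126). In HS578T it was 10.6, 5.24 and 4.97 CPM with shNT and 19.7, 12.1 and 9.18 CPM with shNRP1#5 (0.97, adjusted p = 0.183). There the replicate numbers pair the libraries, and with the replicate block the difference was 0.98 and was called (adjusted p = 0.0264).

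The NT controls of the siRNA and shRNA arms, which differ in delivery, selection, time and passage, differed in several members. Between shNT and siNT, 3 of 7 members were called in SUM159PT (14.4% of all genes), 3 of 6 in MDA-MB-231 (20.6%) and 1 of 6 in HS578T (17.9%). SOX9 was higher in shNT in SUM159PT (1.57, adjusted p = 0.00666 in edgeR) and in MDA-MB-231 (0.71, adjusted p = 0.00786). KLF4 was lower in both lines, by log2 fold changes of -0.88 (adjusted p = 0.0369) and -0.90 (adjusted p = 7.57e-05). ALDH1A3 was higher in SUM159PT (1.63), CD24 was higher in MDA-MB-231 (1.10) and CD44 was lower in HS578T (-0.78, adjusted p = 0.0134). The KLF4 call in SUM159PT was lost without any 1 of 5 of its 6 libraries (siNT replicate 3 being the exception; adjusted p up to 0.136) and the ALDH1A3 call without shNT replicate 3 (adjusted p = 0.0603).

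The effect of the shared #5 target site differed between delivery methods for some members. The siRNA effect minus the shRNA effect was called for 2 of 7 members in SUM159PT (2.51% of all genes), 2 of 6 in MDA-MB-231 (23.7%) and 1 of 6 in HS578T (0.854%). For CD44 it was -1.63 in SUM159PT (adjusted p = 0.0196 in edgeR) and -1.17 in MDA-MB-231 (adjusted p = 0.000662). For CD24 it was -2.36 (adjusted p = 0.0477) and -1.88 (adjusted p = 0.00026). In both lines CD44 and CD24 were thus lower against their control under siRNA than under shRNA. In SUM159PT the CD44 call was lost without shNT replicate 1 (adjusted p = 0.0589), and the CD24 call without any 1 of 14 of the 17 libraries (adjusted p up to 0.109). In HS578T it was 1.21 for KLF4 (adjusted p = 0.048), and 1.301 with an adjusted p of 0.0616 after subtraction of the other lines' reads, and it was lost without any 1 of 15 of the 17 libraries (adjusted p up to 0.147).

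Reagents #5 and #3 were also compared directly. Between siNRP1#5 and siNRP1#3, 3 of 7 members were called in SUM159PT (29.7% of all genes), 5 of 6 in MDA-MB-231 (39%) and 2 of 6 in HS578T (18.1%), and between shNRP1#5 and shNRP1#3 these were 2 of 7 (8.71%), 1 of 6 (14.2%) and 0 of 6 (0.544%). KLF4 was higher with siNRP1#5 than with siNRP1#3 in MDA-MB-231 (0.56, adjusted p = 0.00147 in edgeR) and in HS578T (0.96, adjusted p = 0.00412). After subtraction the HS578T difference was 1.11 and still called (adjusted p = 0.00298). With shRNA, KLF4 was lower with #5 in SUM159PT (-1.82, adjusted p = 0.000526) and in MDA-MB-231 (-0.60, adjusted p = 0.00445). SOX9 was higher with #5 in SUM159PT, both by siRNA (1.44) and by shRNA (1.09, adjusted p = 0.0336), and in HS578T by siRNA (1.23), where the difference was 0.93 and not called after subtraction (adjusted p = 0.112). CD24 was lower with siNRP1#5 in SUM159PT (-1.26) and in MDA-MB-231 (-1.26), as was ALDH1A3 (-1.08 and -0.52). In MDA-MB-231, CD44 was lower (-0.65) and SOX4 higher (1.61) with siNRP1#5. Leaving out 1 library ended the calls of CD24 and ALDH1A3 by siRNA in SUM159PT (10 and 5 of the 17 libraries, adjusted p up to 0.279), of ALDH1A3 in MDA-MB-231 (3 of 18 libraries, adjusted p up to 0.139), of SOX9 by shRNA in SUM159PT (4 of 17, adjusted p up to 0.144) and of SOX9 in HS578T (1 of 17, siNRP1#3 replicate 1, adjusted p = 0.0519).

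Whether a knockdown acted alike in the 3 lines was tested by the equality of its log2 fold changes. KLF4 differed between lines for siNRP1#3 (adjusted p = 2.16e-05 in edgeR, 1 of 7 members against 3.42% of all genes), for siNRP1#5 (adjusted p = 1.63e-06, 1 of 3 members called of 7, against 18.2%) and for shNRP1#5 (adjusted p = 0.000516, 1 of 7 against 3.81%). CD44 (adjusted p = 0.0106) and SOX9 (adjusted p = 0.00495) differed for siNRP1#5. For shNRP1#3, 0 of 7 members differed (0.747% of all genes). The SOX9 difference was not called after subtraction of the other lines' reads (adjusted p = 0.173). Those of CD44 (adjusted p = 0.00262 in edgeR) and KLF4 (adjusted p = 5.0e-06) for siNRP1#5 were still called. With 1 replicate number left out of every group, the CD44 difference was lost without replicate 1 or 2 (adjusted p up to 0.45), the SOX9 difference without replicate 2 (0.151) and the KLF4 difference for shNRP1#5 without replicate 1 (0.129).

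The other aldehyde dehydrogenases (17 genes, 15 tested) were called in 12 of 60 tests over the 4 knockdowns in SUM159PT (20%, where 8.47% of all tests over genes were), 2 higher and 10 lower, with list medians from -0.55 to 0.00 on the log2 scale. ALDH3A2, which oxidises fatty aldehydes, fell with siNRP1#3 from 84.1 ± 18 to 36.2 ± 5.1 CPM (-1.21, adjusted p = 0.00712 in edgeR), with siNRP1#5 (-1.002) and with shNRP1#5 (-1.19), and also in HS578T with siNRP1#3 (-1.05, from 52.2 ± 4.4 to 25.2 ± 5.1 CPM). ALDH3A1, a detoxifying family member, fell in the same 3 SUM159PT comparisons (-3.13, -2.46 and -3.94). ALDH9A1, which makes a carnitine precursor, fell with shNRP1#5 in SUM159PT (-1.45, from 94.9 ± 5.5 to 34.1 ± 2.4 CPM) and in HS578T (-0.96). In MDA-MB-231 14 of 60 tests were called (5 higher, 9 lower; 23.3% against 19.8% of all) and in HS578T 4 of 60 (2 higher, 2 lower; 6.67% against 6.07%).

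In the retinoic acid pathway, which ALDH1A enzymes feed, 8 of 48 tests were called in SUM159PT (2 higher, 6 lower), 17 of 48 in MDA-MB-231 (5 higher, 12 lower) and 4 of 56 in HS578T (1 higher, 3 lower). These are 16.7, 35.4 and 7.14% of the tests, against 8.47, 19.8 and 6.07% over all genes. CYP26B1, which degrades retinoic acid, fell in SUM159PT with shNRP1#3 (-1.18), shNRP1#5 (-2.10, from 28.5 ± 3.0 to 6.50 ± 1.6 CPM) and siNRP1#5 (-1.53). In the first pair of these, ALDH1A3 fell too. STRA6, the retinol uptake receptor, rose with shNRP1#5 in SUM159PT (3.21, from 4.30 ± 3.1 to 38.9 ± 22 CPM). CRABP2, which carries retinoic acid to its receptors, rose with siNRP1#5 in MDA-MB-231 (1.91, from 7.05 ± 1.3 to 26.2 ± 4.9 CPM). The receptor gene RARA rose with siNRP1#5 in SUM159PT (1.03) and in MDA-MB-231 (0.56) and fell with siNRP1#3 in HS578T (-1.10).

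Genes of hyaluronan turnover, CD44 partners and splicing factors were called in 11 of 60 tests in SUM159PT (5 higher, 6 lower), 18 of 56 in MDA-MB-231 (9 and 9) and 7 of 60 in HS578T (5 and 2), or 18.3, 32.1 and 11.7% against 8.47, 19.8 and 6.07% over all genes. HYAL1, a hyaluronidase, rose with both #5 reagents in SUM159PT (3.46 and 2.89) and in MDA-MB-231 (3.03 and 1.05). Its SUM159PT siRNA levels went from 0.344 ± 0.17 to 3.79 ± 3.9 CPM, with a wide spread in siNRP1#5. CEMIP, which binds and breaks down hyaluronan, fell with siNRP1#5 in SUM159PT (-4.31, from 146 ± 167 to 7.32 ± 3.1 CPM), where the SD of siNT exceeded its mean. It also fell with shNRP1#5 in SUM159PT (-2.94, from 26.5 ± 5.3 to 3.38 ± 1.4 CPM) and MDA-MB-231 (-1.95, from 28.0 ± 1.6 to 7.23 ± 0.50 CPM). Of the hyaluronan synthases, HAS3 fell with both siRNAs in SUM159PT (-1.95 and -3.29), where siNT libraries varied widely (6.48 ± 5.4 CPM). HAS2 rose with siNRP1#3 in HS578T (2.69, from 11.8 ± 2.2 to 76.6 ± 16 CPM) and in MDA-MB-231 (1.09), where it fell with shNRP1#3 (-0.94, adjusted p = 0.0482 in edgeR). ESRP2, a splicing factor of epithelial CD44 variants, fell with siNRP1#3 in MDA-MB-231 (-0.55) and rose with siNRP1#3 in HS578T (1.91, adjusted p = 0.0443 in edgeR). In HS578T, ESRP2 was also higher with siNRP1#5 (3.80, from 0.147 ± 0.062 to 2.13 ± 0.95 CPM), in the libraries where genes of the other lines were raised. After subtraction ESRP2 no longer passed the filter on low counts in HS578T. The part of other lines' RNA in this rise was not tested.

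Among the relatives of the transcription factors, the other KLF genes were called in 4 of 60 tests in SUM159PT (2 higher, 2 lower), 19 of 56 in MDA-MB-231 (4 higher, 15 lower) and 7 of 52 in HS578T (4 higher, 3 lower), or 6.67, 33.9 and 13.5% against 8.47, 19.8 and 6.07% over all genes. KLF5, an epithelial factor, rose in HS578T with siNRP1#3 (2.01), siNRP1#5 (2.54) and shNRP1#5 (1.72, from 2.37 ± 0.84 to 7.88 ± 1.6 CPM). KLF17 fell with both siRNAs in MDA-MB-231 (-1.77 and -1.96) and in HS578T (-1.84 and -2.63). After subtraction of the other lines' reads, the HS578T siRNA differences of KLF5 were 2.15 and 2.23 and still called, and of those of KLF17 (-1.79 and -2.59) only the siNRP1#5 one was (adjusted p of 0.0792 and 0.0068 in edgeR). KLF9 rose with siNRP1#3 in SUM159PT (1.38, from 17.7 ± 5.3 to 46.0 ± 8.0 CPM) and fell with shNRP1#5 in MDA-MB-231 (-1.88). The other SOX genes gave 2 of 16, 6 of 24 and 1 of 28 calls by line (12.5, 25 and 3.57%). SOX7 fell with siNRP1#3 in SUM159PT (-1.45, from 17.2 ± 5.7 to 6.28 ± 1.8 CPM), and SOX18 rose there with shNRP1#5 (4.82).

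Other markers of mammary stem cells were called in 6 of 60 tests in SUM159PT (3 higher, 3 lower), 20 of 60 in MDA-MB-231 (8 higher, 12 lower) and 9 of 56 in HS578T (8 higher, 1 lower), or 10, 33.3 and 16.1% against 8.47, 19.8 and 6.07% over all genes. NES, the intermediate filament nestin, rose with both #5 reagents in SUM159PT (4.47 from 0.494 ± 0.071 to 10.9 ± 0.68 CPM by siRNA, and 4.31 by shRNA) and with siNRP1#5 in MDA-MB-231 (2.26, from 25.8 ± 3.9 to 121 ± 20 CPM). It fell with shNRP1#3 in SUM159PT (-2.32) and with siNRP1#3 and shNRP1#3 in MDA-MB-231 (-0.81 and -1.15). ITGA6, the integrin subunit used to sort basal cells, fell with siNRP1#3 in SUM159PT (-2.29, from 121 ± 48 to 24.6 ± 5.0 CPM) and in MDA-MB-231 (-1.18, from 219 ± 14 to 95.1 ± 3.0 CPM). ITGB3 fell with siNRP1#5 in SUM159PT (-2.54, from 194 ± 44 to 33.3 ± 0.67 CPM). In HS578T, 7 of the 8 higher calls were in siNRP1#5, among them TSPAN8 (4.43), CXCR4 (4.16) and EPCAM (3.72), and EPCAM is 1 of the claudin-low-lacking markers whose sum was raised in these libraries. After subtraction EPCAM was not called (3.19, adjusted p = 0.196 in edgeR), and TSPAN8 and CXCR4 no longer passed the filter on low counts.

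The members did not share a single pattern. Over the 18 group means, centred within each line, the highest Pearson correlations of log2 CPM between members were 0.57 for ALDH1A1 with SOX9 and 0.52 for CD44 with CD24. Nearest to CD44 over all tested genes were FOXO3 (0.89) and ACER2 (0.89), nearest to SOX9 were SLBP (0.93) and CRKL (0.93), and nearest to KLF4 were ITLN1 (0.87) and ORM2 (0.86). For CD24 it was FAM13B (0.88), for ALDH1A3 CORO2A (0.88) and for SOX4 CCDC102B (0.90). These values are descriptive, since groups of a line share controls, delivery and depth.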

How the data were processed

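Poly(A) mRNA of 52 libraries was sequenced after stranded library preparation. The authors trimmed reads with Trim Galore 0.6.5, aligned them to GRCh38 with STAR 2.7.2b and quantified genes and transcripts with RSEM 1.3.3. Deposited expected counts are estimates per gene, not scaled for depth (94.3% of gene values were exactly whole, zeros included). Deposited TPM are scaled by transcript length and depth, and deposited isoform percents divide a gene's TPM among its transcripts.

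Expected counts were rounded and fitted in edgeR 4.0.16 (R 4.3.3; filterByExpr, TMM, robust quasi-likelihood) with 6 group means per cell line, or with 18 group means over all 52 libraries for cell lines and for equality of effects. Benjamini-Hochberg adjustment ran over all genes tested, with a threshold of 0.05. A gene was called when it passed. CPM are counts scaled with TMM factors to a fixed library total. CD44 transcripts were matched by identifier and version to GENCODE v44 (38 of 38), and the 2 kinds of CD44 share were compared by exact permutation within lines. RNA of another line was estimated from genes at or below 0.5 CPM in the host's NT libraries and at or above 20 CPM in the donor's, as the median percent of the donor level. Scripts were tested on simulated data. The members, the gene lists and the tests were chosen with earlier results of these data known. From each list, counts and at most the 3 largest called changes per line and knockdown were eligible to be named, and for each member the 3 genes with the most similar group means.

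Replicates differed by more than counting noise (lowest chi-square per degree of freedom 11.1 over 50 pairs). Reads carried no molecular identifiers. Same-numbered libraries deviated together, with every correlation over 0.1, only in SUM159PT siRNA (7 pairs, 0.132 to 0.370) and HS578T shRNA (7 pairs, 0.201 to 0.610). By this rule the replicate number was taken to pair libraries there. Median correlations of same-numbered and of other pairs were 0.188 and -0.107 in MDA-MB-231 siRNA and 0.111 and -0.074 in SUM159PT shRNA. They were 0.032 and -0.034 in HS578T siRNA and 0.016 and -0.012 in MDA-MB-231 shRNA. Pairing in these arms was not tested further. The main fits held no replicate term in any arm. Alternatives were DESeq2 1.42.0, RLE factors, no filter on low counts, fits of only the groups compared, subtraction of other lines' reads, a replicate block, ratios of mean TPM, and leaving out each library.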

Additional observations from a re-analysis of the deposited data

Results flagged for a closer look

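The results below were picked out because an effect differed between lines or between delivery methods by a test of the difference itself. The effect of target site #5 by siRNA minus its effect by shRNA, on the log2 scale, was -1.63 for CD44 and -2.36 for CD24 in SUM159PT, -1.17 for CD44 and -1.88 for CD24 in MDA-MB-231, and 1.21 for KLF4 in HS578T. The siRNA and shRNA arms also differed in time, selection and passage, which cannot be told apart from delivery.

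Between the 3 lines, the effect of siNRP1#3 differed for KLF4 (adjusted p = 2.16e-05 in edgeR), which fell by 2.16 in SUM159PT and by 0.47 in MDA-MB-231 and differed by -0.14 in HS578T. The effect of siNRP1#5 differed for KLF4 (adjusted p = 1.63e-06), with -1.44, 0.09 and 0.82 in that order, for CD44 (adjusted p = 0.0106), with -1.62, -0.98 and -0.52, and for SOX9 (adjusted p = 0.00495). The effect of shNRP1#5 differed for KLF4 (adjusted p = 0.000516), which fell by 1.61 in SUM159PT. Once the other lines' reads were subtracted, the SOX9 difference between lines (adjusted p = 0.173) and the KLF4 difference between delivery methods in HS578T (1.301, adjusted p = 0.0616) were no longer called. Groups of 3 or fewer libraries could not be tested for single outlying libraries.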

How the results depend on the processing

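Of 66 called single-member results, 65 kept their direction and call with DESeq2, 66 with RLE factors, 63 without the filter on low counts, 62 with other lines' reads subtracted and 66 with the replicate block, and none reversed. Of the 18 knockdown results, fits of only the groups compared kept 14, and ratios of mean TPM stayed within the replicate spread for 12 with a pseudocount of 0.1 and for 5 with a pseudocount of 1. Counts of called members moved most in HS578T knockdowns, from 3 to 5 without the filter and to 6 with the replicate block, and for equality between lines, from 5 to 11 and to 9. Within single comparisons the block also raised the count from 2 to 4 for HS578T siNRP1#5 against siNRP1#3 and from 1 to 2 for siNRP1#3 in MDA-MB-231 and HS578T, MDA-MB-231 shNRP1#5 and the HS578T difference between delivery methods, and from 0 to 1 for HS578T shNRP1#5. With 1 library left out, called members numbered 2 to 4 in HS578T, 6 to 8 in MDA-MB-231, 6 to 10 in SUM159PT, 5 to 8 between control types, 11 to 16 between #5 and #3 and 3 to 5 for the difference between delivery methods. With 1 replicate number left out of every group, chosen after the data were seen in place of each library in the fit over all lines, they numbered 17 to 18 between lines and 3 to 5 for equality. Leaving out each library in that fit was not run. The share of CD44 in transcripts with an exon in the variable region was the least stable. By expected counts it gave -2.03 points for shNRP1#3 and 0.783 for shNRP1#5, with protein-coding transcripts 0.988 for shNRP1#5, and with the replicate block -4.85 for shNRP1#3 (exact permutation, adjusted p = 0.0625). In transcripts that span the whole region it was 1.65 for siNRP1#3, -0.0669 for siNRP1#5, 0.540 for shNRP1#3 and 2.31 for shNRP1#5. With a whole exon v2 to v10 it was 2.64 for siNRP1#5, -2.76 for shNRP1#3 and 1.26 for shNRP1#5. Leaving out a replicate number gave 1.04 to 5.22, 6.62 to 9.32, -6.57 to -3.53 and -6.28 to 0.943 points in that order. The cause was not tested. Depth limits PROM1 and ALDH1A1 most. Other results also rest on few counts, such as 17 to 42 for SOX4 in MDA-MB-231 siNT. CD24 had 27 to 44 counts in MDA-MB-231 siNRP1#5, and ALDH1A3 had 15.29 to 65 in HS578T shNRP1#5.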
